A study of Mus musculus with 11 samples.

Results

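The insulin-like growth factor (IGF) axis of the mouse left ventricle was followed through 8 genes, matched by symbol to the gene table: Igf1, the ligand, Igf1r, its receptor, and the IGF binding protein genes Igfbp2, Igfbp3, Igfbp4, Igfbp5, Igfbp6 and Igfbp7. They were selected on their known CPM levels in the 4 groups below. They are 8 of the 25006 genes counted, and all 8 passed the filter on low counts, as did 14779 genes in all. Bulk mRNA was sequenced from 11 mice, as 1 library of left ventricle each. Naive control hearts (n = 2, mice M45 and M44) and naive Vegfc-deficient hearts (n = 3, M34, M150 and M149) were set beside control hearts (n = 3, M38, M006 and M40) and Vegfc-deficient hearts (n = 3, M35, M913 and M900) taken 9 days after myocardial infarction (MI). MI was made by permanent ligation of the left anterior descending coronary artery, and the infarcted part of the ventricle was taken, whereas the naive tissue came from an unligated ventricle at a like site and mass. The Vegfc-deficient mice carry the genotype Vegfc fl/fl ; LysMCre, in which Cre recombinase is made from the Lyz2 locus, so that the loss of Vegfc is aimed at macrophages and other myeloid cells rather than at the cells of the heart wall. The labels give the control mice as Vegfc fl/fl, so that both genotypes share the floxed allele, but the protocol text describes them as LysMCre mice and the study's text also allows C57BL/6 mice as controls, so that which of these each control mouse was is not given here. The labels give no strain or age.

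Total counts were 10824989 to 14585642 in the naive libraries and 14580756 to 26782728 in the MI libraries. Values are in CPM, the read counts relative to library size after scaling between libraries, and 3 counts came to 0.101 to 0.363 CPM, a floor for counting error only. Vegfc itself did not separate the genotypes in whole tissue (21.9 to 45.5 CPM over the 11 libraries). Lyz2 was at 2121 and 2282 CPM in the naive control libraries and at 72.5 and 245 CPM in M150 and M34. In M149 it was at 4565 CPM, which goes against that label, so M149 is called the library labelled M149. Fold changes of the 8 genes in the main fit that rest on M149 are given with and without it. Most of those of the pathway list are given only with it. After MI, Lyz2 was at 4538 to 5380 CPM with the control genotype, at 12.4 and 203 CPM in M913 and M900, and at 1392 CPM in M35, the library highest for Igfbp5 and Igfbp6. Every MI library also differed from every naive library in Xist (188 to 403 against 0.624 to 11.8 CPM) and in the sum of 4 Y-linked genes (at most 1.84 against 152 to 195 CPM). By these genes the naive hearts read as male and the MI hearts as female. MI and sex thus cannot be told apart for any gene. The tissue label was borne out by cardiomyocyte markers, 8 of 8 detected, which summed to 55940 to 76063 CPM in naive and 1996 to 18906 CPM in MI libraries.

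IGF-1 is a secreted growth factor that is made in the liver and also locally in tissues, and it acts through the receptor tyrosine kinase encoded by Igf1r on growth, survival and protein synthesis. The IGF binding proteins hold the ligand outside the cell, and they can lengthen its life, keep it from the receptor or hand it over when they are cut by proteases. In the heart, Igf1 is known as a product of macrophages and fibroblasts, while several binding proteins are known from fibroblasts and vessel cells. IGFBP7 binds IGF-1 only weakly and is a matrix-associated protein of vessels, and IGFBP6 prefers IGF-2.

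The genes lie on 6 chromosomes of GRCm38. Igfbp2 (ENSMUSG00000039323, chromosome 1, 72824503 to 72852474, plus strand) and Igfbp5 (ENSMUSG00000026185, chromosome 1, 72857932 to 72874884, minus strand) are neighbours that converge on a gap of 5457 bp with 0 counted genes in it. Igfbp3 (ENSMUSG00000020427, chromosome 11, 7206086 to 7213923, minus strand) is the neighbour of Igfbp1, 3539 bp away. Igfbp4 (ENSMUSG00000017493) is at 99041244 to 99054392 of chromosome 11, Igfbp6 (ENSMUSG00000023046) at 102144362 to 102149511 of chromosome 15 and Igfbp7 (ENSMUSG00000036256) at 77349240 to 77408041 of chromosome 5. Igf1 (ENSMUSG00000020053) spans 87858265 to 87937042 of chromosome 10, and Igf1r (ENSMUSG00000005533) spans 67952827 to 68233668 of chromosome 7. Igfbp7 overlaps Polr2b on the opposite strand by 85 bp. The strand setting of the counting is not given in the sources used here, so how reads of that stretch were counted is not known.

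The promoters of 5 binding protein genes are shown, because Igfbp3, Igfbp4 and Igfbp7 had nearly the same pattern over the libraries while the neighbours Igfbp2 and Igfbp5 did not. Each window holds 250 bases before and 50 bases after the RefSeq start (GRCm38.p6, strand of the gene, 5′ to 3′). RefSeq entries matched 8 of the 8 genes. Capitals mark the letters of motifs searched on both strands, which did not overlap each other. The TATA box was searched as TATAAA and the GC box as GGGCGG, which appears as CCGCCC where it lies on the other strand. The E-box was searched as CACGTG and the forkhead site as TGTTTAC. The AP-1 site was searched as TGANTCA. The windows lie at chr1:72824230-72824529 (plus) for Igfbp2, chr1:72874816-72875115 (minus) for Igfbp5, chr11:7213874-7214173 (minus) for Igfbp3, chr11:99040994-99041293 (plus) for Igfbp4 and chr5:77407996-77408295 (minus) for Igfbp7.
Igfbp2: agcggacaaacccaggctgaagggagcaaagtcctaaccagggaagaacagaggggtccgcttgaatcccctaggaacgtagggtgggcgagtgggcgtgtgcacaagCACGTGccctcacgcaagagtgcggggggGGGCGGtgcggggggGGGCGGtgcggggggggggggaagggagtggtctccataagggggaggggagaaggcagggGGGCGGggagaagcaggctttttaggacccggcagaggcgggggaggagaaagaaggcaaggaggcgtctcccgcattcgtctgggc
Igfbp5: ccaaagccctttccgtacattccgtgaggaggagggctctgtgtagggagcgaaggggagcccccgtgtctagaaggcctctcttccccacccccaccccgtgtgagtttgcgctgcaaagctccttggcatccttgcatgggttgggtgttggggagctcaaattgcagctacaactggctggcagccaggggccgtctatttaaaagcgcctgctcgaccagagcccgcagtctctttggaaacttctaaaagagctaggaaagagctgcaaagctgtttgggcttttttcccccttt
Igfbp3: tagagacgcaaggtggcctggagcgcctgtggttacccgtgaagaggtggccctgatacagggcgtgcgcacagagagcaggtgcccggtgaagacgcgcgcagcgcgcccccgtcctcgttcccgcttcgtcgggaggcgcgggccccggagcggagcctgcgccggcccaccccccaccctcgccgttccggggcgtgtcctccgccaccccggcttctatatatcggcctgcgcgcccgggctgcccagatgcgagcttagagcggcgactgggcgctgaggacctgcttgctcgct
Igfbp4: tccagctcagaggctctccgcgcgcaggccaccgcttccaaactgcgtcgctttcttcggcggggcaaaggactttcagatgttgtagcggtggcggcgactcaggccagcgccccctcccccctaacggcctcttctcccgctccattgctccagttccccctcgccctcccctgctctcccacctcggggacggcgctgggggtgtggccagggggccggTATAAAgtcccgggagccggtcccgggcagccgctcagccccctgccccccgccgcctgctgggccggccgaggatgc
Igfbp7: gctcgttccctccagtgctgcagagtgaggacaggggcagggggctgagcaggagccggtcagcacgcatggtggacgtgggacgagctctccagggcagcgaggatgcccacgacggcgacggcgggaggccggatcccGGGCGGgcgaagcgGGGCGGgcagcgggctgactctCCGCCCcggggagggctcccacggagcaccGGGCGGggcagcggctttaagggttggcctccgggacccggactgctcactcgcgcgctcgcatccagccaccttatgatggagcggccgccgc

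The Igfbp2 window held GC boxes at -113, -98 and -37 from the start and an E-box at -142, and the Igfbp7 window held 4 GC boxes between -110 and -44. The Igfbp4 window held a TATA box at -28. None of the searched letters stood in the windows of Igfbp5 and Igfbp3, which says only that these letters are absent there. Among the other genes, the Igf1 window held an AP-1 site at -37 and that of Igf1r held GC boxes at -43 and -26. That of Igfbp6 held the TATA box letters at -148 on the other strand only, where they appear as TTTATA. Of 32851 RefSeq promoter windows of this length, 13.6% held the TATA box letters, 35.7% the GC box, 7.15% the E-box, 7.81% the AP-1 letters and 3.65% the forkhead letters. GC content was 56.3% in the Igfbp5 window and 67.0% to 73.3% in the other 4 printed. A match describes the letters and shows neither binding nor a cause.

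After MI, Igf1 and the binding protein genes Igfbp2, Igfbp3, Igfbp4 and Igfbp7 were higher in both genotypes, Igfbp5 was higher in Vegfc-deficient hearts, and Igfbp6 was not higher in either. The 8 genes were chosen with these levels known, so that their values are given as a description. The first question is how the axis differed between MI and naive control hearts. The next is how it differed where myeloid Vegfc was targeted. In all comparisons of MI with naive hearts, those of the pathway list included, MI and sex cannot be told apart. The same holds where a genotype difference in naive hearts is set against that in MI hearts.

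Igf1 was at 92.0 and 76.2 CPM in naive control hearts, at 91.3 and 95.1 CPM in naive Vegfc-deficient M34 and M150, and at 157 CPM in the library labelled M149. After MI it was at 224, 281 and 265 CPM in control hearts and at 217, 247 and 267 CPM in Vegfc-deficient hearts. Every MI library lay above every naive library, M149 included. The log2 fold change, on the scale of edgeR's fitted means, was 1.61 (standard error 0.25) in control hearts and 1.09 (standard error 0.22) in Vegfc-deficient hearts, the latter becoming 1.39 without M149. Macrophage markers (8 of 8 detected) summed to 1418 to 1656 CPM in the other naive libraries, to 2190 CPM in M149 and to 1962 to 4777 CPM after MI, and their part in the Igf1 values was not tested. In such bulk tissue, fewer or more cells of a type and less or more RNA per cell cannot be told apart.

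Igf1r, the receptor gene, was at 21.3 and 18.4 CPM in naive control hearts and at 18.3, 14.5 and 15.9 CPM in naive Vegfc-deficient hearts. It was at 19.8, 31.2 and 32 CPM in MI control hearts and at 30.7, 26.7 and 27.8 CPM in MI Vegfc-deficient hearts. M38 was the low library of the MI control group and fell between the 2 naive control libraries, so that those groups overlapped, whereas the Vegfc-deficient groups did not. The log2 fold change after MI was 0.48 (standard error 0.21) in control hearts and 0.80 (standard error 0.19) in Vegfc-deficient hearts. Beside these stand 1.61 and 1.09 for the ligand, and without M149 the Vegfc-deficient values were 1.39 for the ligand and 0.78 for the receptor. Per length of exon, the ratio of Igf1 to Igf1r was 7.03 and 7.32 in naive control hearts, 8.45 to 16.8 in naive Vegfc-deficient hearts with M149 the highest, and 12 to 19.1 after MI.

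Igfbp3, the gene of the main carrier of IGF in blood, was at 59.9 and 51.8 CPM in naive control hearts and at 72.7, 62.1 and 51.3 CPM in naive Vegfc-deficient hearts. After MI it was at 127, 174 and 177 CPM in control hearts and at 170.0, 189.6 and 156 CPM in Vegfc-deficient hearts. No MI library reached down to a naive one, and the log2 fold changes were 1.51 (standard error 0.20) in control and 1.47 (standard error 0.18) in Vegfc-deficient hearts. The latter was 1.35 without M149.

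Igfbp4, whose product restrains IGF until it is cut by the protease PAPP-A, was at 272 and 295 CPM in naive control hearts and at 312, 261 and 217 CPM in naive Vegfc-deficient hearts. After MI it was at 665, 1049 and 750.5 CPM in control hearts and at 706, 785 and 754 CPM in Vegfc-deficient hearts. M006 was the highest library, and the naive and MI libraries did not overlap in either genotype. The log2 fold changes were 1.54 (standard error 0.24) in control and 1.51 (standard error 0.21) in Vegfc-deficient hearts, and the latter was 1.38 without M149.

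Igfbp7 was at 644 and 699 CPM in naive control hearts and at 691, 726 and 593 CPM in naive Vegfc-deficient hearts. After MI it was at 1487, 2170.2 and 1726 CPM in control hearts and at 1846, 2043 and 1688 CPM in Vegfc-deficient hearts. The groups were again apart, with log2 fold changes of 1.42 (standard error 0.24) in control and 1.47 (standard error 0.21) in Vegfc-deficient hearts. Without M149 the latter was 1.39. M38 was the lowest of the 3 MI control libraries for each of Igf1, Igf1r, Igfbp3, Igfbp4 and Igfbp7, and M006 was the highest for Igf1, Igfbp4 and Igfbp7.

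Igfbp2, a binding protein gene known from liver and embryonic tissue, was near 0 in naive hearts, with 0 and 1 counts in the control libraries and 8, 0 and 1 counts in M34, M150 and M149. It passed the filter on low counts through its MI libraries, so that it had to differ. After MI it had 137, 79 and 240 counts in control hearts (4.63, 4.25 and 8.81 CPM) and 29, 131 and 133 counts in Vegfc-deficient hearts (1.70, 5.43 and 5.58 CPM), with M35 the lowest. All 6 MI libraries lay above the 5 naive ones. The ratio of summed counts, MI to naive and relative to library size, was 134.5 (95% exact Clopper-Pearson interval 24 to 5325) in control hearts, which rests on 1 naive count. It was 15.4 (8.0 to 34) in Vegfc-deficient hearts, 11.6 (5.80 to 27.1) without M149 and 83.2 (14.8 to 3297) without M34, and these intervals cover counting error only.

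Igfbp6 went its own way. It was at 89.6 and 100.3 CPM in naive control hearts, at 58.4, 64.4 and 77.1 CPM in naive Vegfc-deficient hearts and at 65.2, 66.6 and 77.1 CPM in MI control hearts. In the MI Vegfc-deficient group it was at 110.5 CPM in M35 but at 47.9 and 39.1 CPM in M913 and M900, so that this group held both the highest and the lowest of the 11 libraries. The log2 fold change after MI was -0.45 (standard error 0.35) in control hearts, where the groups did not overlap, and -0.02 (standard error 0.32) in Vegfc-deficient hearts. The latter was -0.61 without M35 and 0.10 without M149. M35 also had the highest summed cardiomyocyte markers of the MI libraries (18906 CPM against 1996 to 10177 CPM in the other 5). Epicardial and mesothelial markers (6 of 6 detected) summed to 159 CPM in M35 and to 48.3 and 69.4 CPM in M913 and M900. They summed to 62.0 to 198 CPM in MI control hearts, with M40 the highest at 77.1 CPM of Igfbp6, and to 26.4 to 41.4 CPM in naive hearts, where the control libraries had the highest Igfbp6 after M35. The part of these cells in the Igfbp6 values was not tested.

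**Figure D1:**
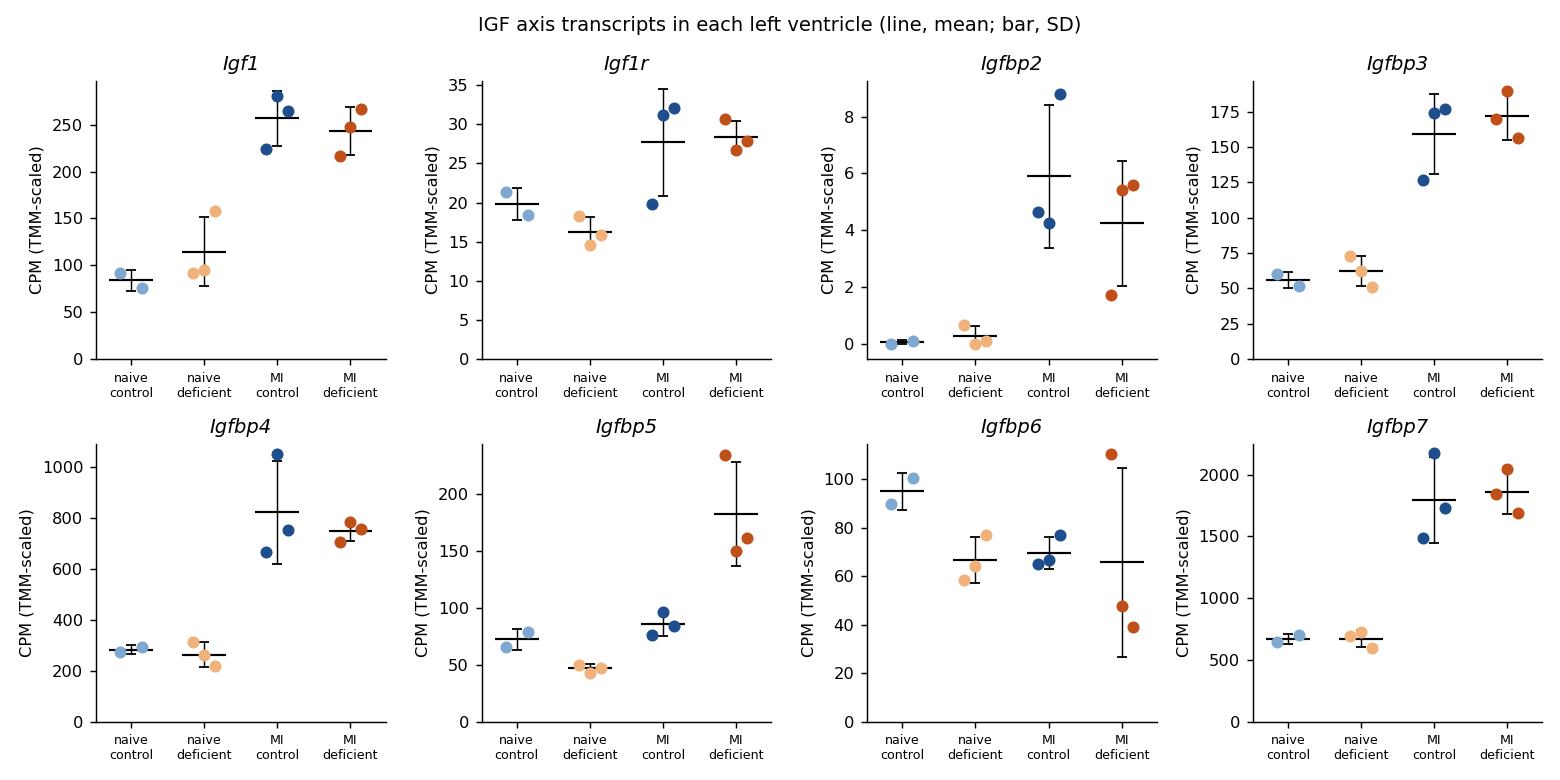
CPM (y axis, linear) of the 8 IGF axis genes in each of the 11 libraries, by group (x axis), with the group mean as a line and the SD as a bar. Igf1, Igfbp2, Igfbp3, Igfbp4 and Igfbp7 lie higher in all 6 MI libraries than in all 5 naive ones, Igfbp5 lies highest in the 3 MI Vegfc-deficient libraries (151 to 235 CPM), and Igfbp6 is widely spread there (39.1 to 110.5 CPM).

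In control hearts, 5 of the 8 genes passed the threshold of an adjusted p of 0.05 in edgeR's quasi-likelihood test, all higher after MI (Igf1, Igfbp2, Igfbp3, Igfbp4 and Igfbp7), where 26.3% of all 14779 genes passed as higher and 24.1% as lower. In Vegfc-deficient hearts 7 of the 8 passed as higher, with Igf1r and Igfbp5 added, against 30% of all genes as higher and 27.7% as lower. The levels that chose the 8 genes are those compared here, so nothing is read from these counts. MI and naive groups did not overlap for 6 of the 8 genes in control hearts (72.1% of all genes) and for 7 of the 8 in Vegfc-deficient hearts (64.3% of all genes). The median log2 fold change of the 8 genes was 1.46 in control and 1.47 in Vegfc-deficient hearts, and that of all genes tested was 0.13 and 0.10. With a length trend over all genes subtracted, the fold change of Igfbp6, a short gene (1112 bp of exon), moved from -0.02 to 0.89 in Vegfc-deficient hearts and from -0.45 to 0.05 in control hearts, so that its direction is not settled, and that of Igfbp7 (1209 bp) moved from 1.47 to 2.31 in Vegfc-deficient hearts.

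The tissue around these genes differed as well. Fibroblast markers (8 of 8 detected) summed to 7693 to 9466 CPM in naive libraries and to 22407 to 36836 CPM after MI, with 4 of the 8 higher and 1 lower in control hearts and 5 higher and 1 lower in Vegfc-deficient hearts by edgeR's test. Markers of activated fibroblasts, 7 of 7 higher after MI in each genotype by edgeR's test, summed to 507 to 920.0 CPM in naive and 10807 to 18298 CPM in MI libraries. Blood endothelial markers (7 of 7 detected) summed to 6402 to 7269 CPM in naive and 963 to 3283 CPM in MI libraries, with 3 of the 7 lower in control hearts and 3 lower and 1 higher in Vegfc-deficient hearts. The part of these cell types in the values of the binding protein genes was not tested.

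**Figure D2:**
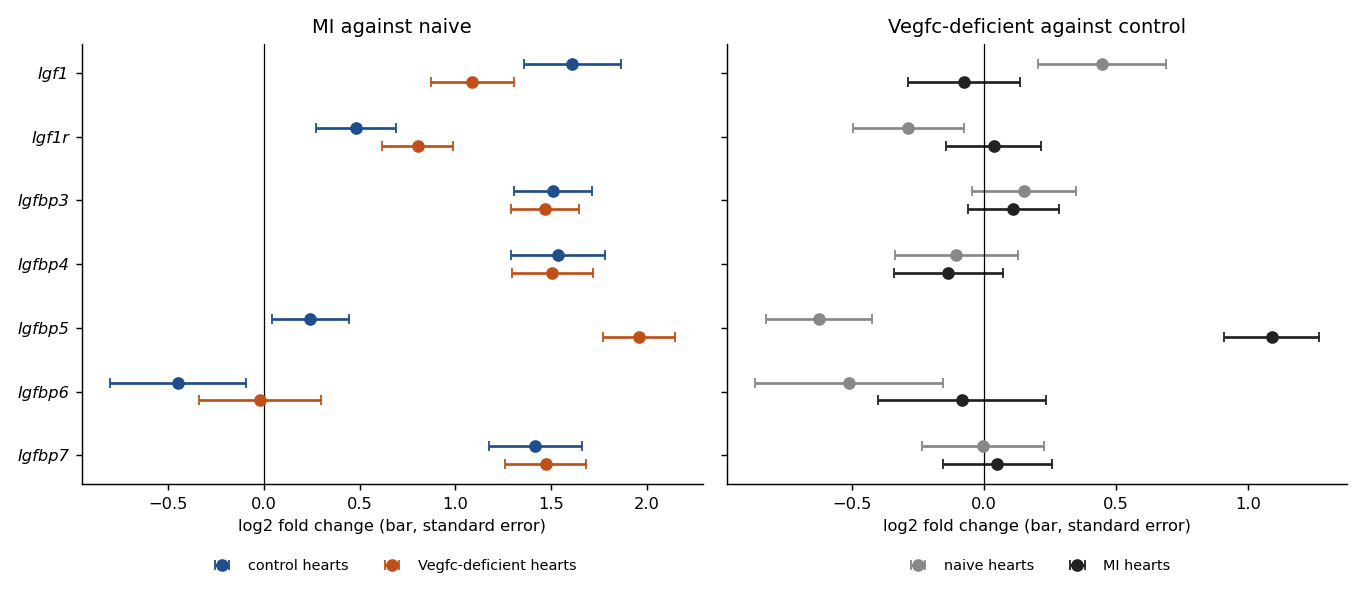
Log2 fold changes (x axis) of 7 of the genes, with standard errors as bars, for MI against naive in each genotype (left) and for Vegfc-deficient against control hearts in each state (right). Igfbp2 is left out because its naive counts are at or near 0. Igfbp5 is the gene drawn whose fold change after MI differs most between the genotypes (0.24 and 1.96), while Igfbp3, Igfbp4 and Igfbp7 lie between 1.42 and 1.54 in both. Without M149, which is drawn as labelled, their Vegfc-deficient values were 1.35, 1.38 and 1.39.

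Igfbp5 encodes a binding protein that attaches to extracellular matrix. Of the 8 genes it alone had MI libraries that did not overlap between the genotypes. It was at 65.7 and 79.1 CPM in naive control hearts and at 50.3, 43.2 and 47.3 CPM in naive Vegfc-deficient hearts. After MI it was at 76.2, 96.7 and 84.4 CPM in control hearts and at 235, 151 and 162 CPM in Vegfc-deficient hearts. The 3 MI Vegfc-deficient libraries were the highest of all 11 and the 3 naive Vegfc-deficient libraries were the lowest. With M149 as labelled, the order of the genotypes thus turned between naive and MI hearts. The naive hearts read as male and the MI hearts as female, so this turn cannot be told apart from sex. M149 (47.3 CPM) lay below M34 (50.3 CPM), so with M149 taken as a control library the naive genotypes would overlap. MI control and naive control libraries overlapped. The log2 fold change after MI was 0.24 (standard error 0.20) in control hearts and 1.96 (standard error 0.19) in Vegfc-deficient hearts. Without M149 the latter was also 1.96.

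Between Vegfc-deficient and control hearts, the log2 fold change of Igfbp5 was 1.09 (standard error 0.18) after MI and -0.63 (standard error 0.20) in naive hearts, and the interaction, the difference between these, was 1.71 (standard error 0.27). None of these comparisons passed edgeR's threshold for Igfbp5 or for any other gene, as 0% of the 14779 genes were called. At an unadjusted p under 0.05 edgeR had 1173 genes (7.94%) after MI, 499 (3.38%) in naive hearts and 1226 (8.3%) for the interaction. The DESeq2 Wald test called 62, 14 and 58 genes, and Igfbp5 was the one of the 8 among them, after MI and in the interaction. Igfbp5 is also in the study's own listing of genes by genotype after MI in these libraries, so that its direction is not independent evidence. The fold change after MI ran from 0.86 without M35, its highest library, to 1.22 without M913, and the interaction ran from 1.49 to 1.85. Without M149 the naive fold change was -0.63 and the interaction 1.72. Of all genes tested, 5.99% had MI Vegfc-deficient libraries all above the MI control libraries, 10.1% had naive Vegfc-deficient libraries all below, and 194 genes (1.31%) had both as Igfbp5 did.

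Ratios within a library do not depend on the scaling between libraries. Per length of exon, Igfbp5 was at 0.178 and 0.197 times the level of Igfbp4 in naive control hearts and at 0.119, 0.122 and 0.160 times in M34, M150 and M149. The ratio was 0.0678 to 0.0843 in MI control hearts and 0.141 to 0.245 in MI Vegfc-deficient hearts. It was thus lowest in the 3 MI control libraries, and these did not overlap with any other group.

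Markers of several cell types were set beside Igfbp5. Fibroblast markers summed to 22407, 27268 and 30321 CPM in the MI control libraries M38, M006 and M40 and to 31406, 29504 and 36836 CPM in M35, M913 and M900 of the MI Vegfc-deficient group, so that the genotypes overlapped there. Activated fibroblast markers summed to 12318, 12876 and 16798 CPM and to 10807, 15576 and 18298 CPM in the same libraries, with M35, the highest for Igfbp5, the lowest for these markers. Smooth muscle and pericyte markers (6 of 6 detected) summed to 1457 to 1817 CPM in MI control and 1131 to 1570.0 CPM in MI Vegfc-deficient hearts. Cardiomyocyte markers summed to 10177, 8261 and 1996 CPM in the MI control libraries and to 18906, 8386 and 4145 CPM in the MI Vegfc-deficient ones, so that M35 was the highest of the 6. None of the marker genes of these 4 lists passed edgeR's threshold between the genotypes, but neither did any of the 14779 genes. That test thus does not decide whether the marker levels differed. The part of these cell types in the Igfbp5 values was not tested.

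**Figure D3:**
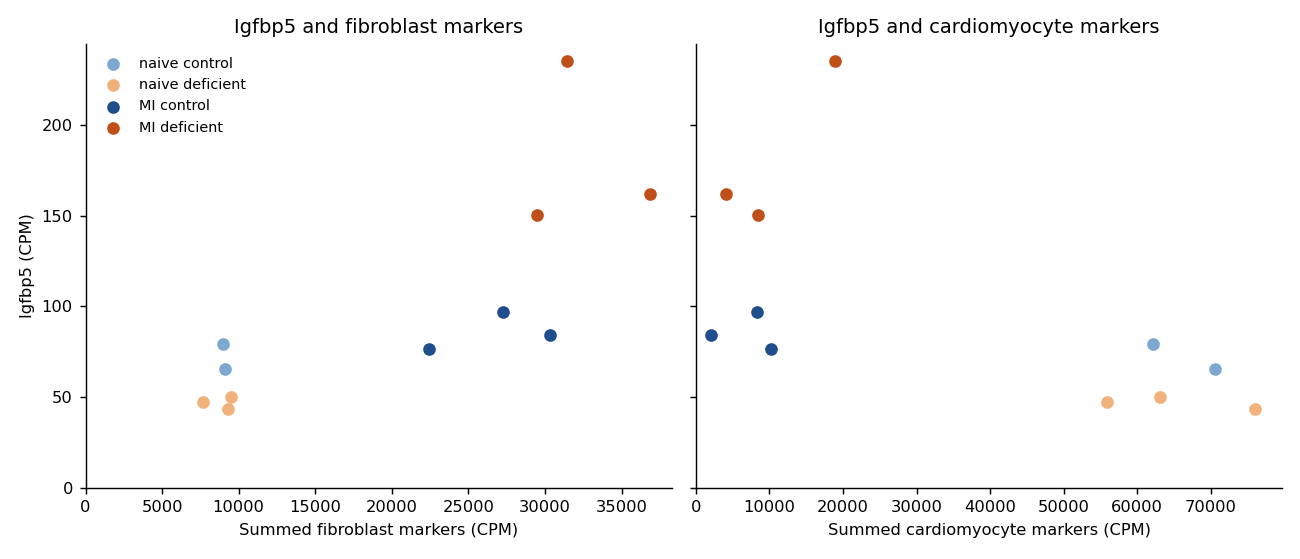
Igfbp5 (y axis, CPM) against the summed CPM of fibroblast markers (left, x axis) and of cardiomyocyte markers (right, x axis) in the 11 libraries, coloured by group. The 3 MI Vegfc-deficient libraries lie at 151 to 235 CPM of Igfbp5, above the MI control libraries (76.2 to 96.7 CPM). The marker sums of these groups overlap. For fibroblast markers M35 and M900 lie above every MI control library and M913 lies below M40. For cardiomyocyte markers M35 is the highest MI library.

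For the other genes the comparison of genotypes gave smaller values after MI, apart from Igfbp2 at -0.47 (standard error 0.60). The log2 fold change after MI, Vegfc-deficient against control, was -0.07 for Igf1 (standard error 0.21), 0.04 for Igf1r (standard error 0.18), 0.11 for Igfbp3 (standard error 0.17), -0.13 for Igfbp4 (standard error 0.21), -0.08 for Igfbp6 (standard error 0.32) and 0.05 for Igfbp7 (standard error 0.21). The groups overlapped for all 6 of these and for Igfbp2. In naive hearts the Vegfc-deficient libraries all lay below the control libraries for 3 of the 8 genes, Igfbp5, Igfbp6 and Igf1r, where 10.1% of all genes did so. With M149 taken as a control library, this order would hold for Igfbp6 only. The naive log2 fold changes were -0.51 for Igfbp6 (standard error 0.36) and -0.29 for Igf1r (standard error 0.21), and -0.63 and -0.27 without M149. For Igf1r the lowest control library (18.4 CPM) and the highest Vegfc-deficient library (18.3 CPM) nearly met. The naive log2 fold change of Igf1 was 0.45 (standard error 0.24), and 0.15 without M149. Igfbp2 had 1 count in the naive control libraries and 9 in the naive Vegfc-deficient ones, on which no fold change is given. The median over the 8 genes was -0.02 after MI and -0.05 in naive hearts, and that of all genes tested was -0.01 and 0.01.

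Levels of different genes were compared as CPM per kb of exon. Igfbp7 stood far above the rest in every group, at 555 ± 32.1 in naive control, 554 ± 56.9 in naive Vegfc-deficient, 1484 ± 287 in MI control and 1538 ± 147 in MI Vegfc-deficient hearts (mean ± SD, n = 2, 3, 3 and 3 throughout). In naive control hearts the order that followed was Igfbp6 (85.4 ± 6.82), Igfbp4 (64.1 ± 3.66), Igfbp3 (17.8 ± 1.82), Igfbp5 (12.1 ± 1.58), Igf1 (8.49 ± 1.128), Igf1r (1.18 ± 0.123) and Igfbp2 (0.0241 ± 0.0341). The libraries of neighbours in that order did not overlap. In naive Vegfc-deficient hearts Igfbp6 (59.9 ± 8.56) and Igfbp4 (59.7 ± 10.7) overlapped in their libraries. Igf1 (11.6 ± 3.75) stood above Igfbp5 (7.81 ± 0.592) in each of the 3 libraries, at 9.22, 9.61 and 15.9 against 8.37, 7.19 and 7.87 CPM per kb in M34, M150 and M149.

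After MI, Igfbp4 took the second place, at 186 ± 45.6 CPM per kb in control and 169 ± 8.95 in Vegfc-deficient hearts. Igfbp6 (62.6 ± 5.84) and Igfbp3 (50.8 ± 8.96) followed in control hearts, where their libraries did not overlap (58.6 to 69.3 against 40.5 to 56.5), whereas the same pair overlapped in Vegfc-deficient hearts (59.2 ± 35 and 54.9 ± 5.40). Igf1 (25.9 ± 2.96) stood above Igfbp5 (14.3 ± 1.71) in MI control hearts, whereas Igfbp5 (30.4 ± 7.63) and Igf1 (24.6 ± 2.57) overlapped in MI Vegfc-deficient hearts. Igfbp2 (3.19 ± 1.37 and 2.29 ± 1.19) and Igf1r (1.65 ± 0.406 and 1.69 ± 0.123) were the lowest in both MI groups. Their libraries did not overlap in control hearts (2.30 to 4.77 against 1.18 to 1.91) and did so in Vegfc-deficient hearts (0.923 to 3.02 and 1.59 to 1.83).

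**Figure D4:**
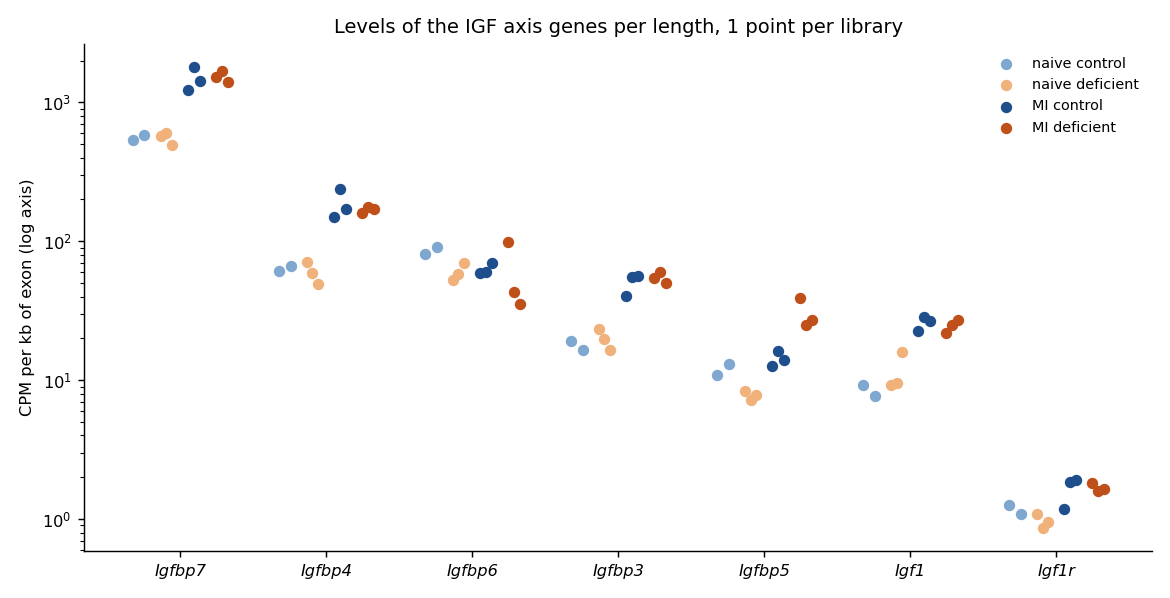
CPM per kb of exon (y axis, log scale) of 7 of the genes (x axis) in each library, with 1 point per library coloured by group. Igfbp2 is left out because it is 0 in some libraries. Igfbp7 is the highest gene in all 11 libraries, Igf1r is the lowest of those drawn, and Igfbp4 lies above Igfbp6 in the MI libraries.

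The makeup of the binding protein family followed from these levels. Igfbp7 gave 75.6% ± 0.00943 of the summed level per kb in naive control hearts (SD, n = 2), 78.9% ± 1.61 in naive Vegfc-deficient (n = 3), 82.4% ± 0.462 in MI control (n = 3) and 82.9% ± 1.67 in MI Vegfc-deficient hearts (n = 3). The share of Igfbp6 was 11.6% ± 0.259 and 8.65% ± 2.00 in the naive groups and 3.56% ± 0.684 and 3.18% ± 1.83 in the MI groups, so that it was lower in every MI library (at most 5.28%) than in every naive one (at least 7.23%). The share of Igfbp5 was 1.64% ± 0.121 in naive control, 1.12% ± 0.141 in naive Vegfc-deficient, 0.80% ± 0.0534 in MI control and 1.65% ± 0.415 in MI Vegfc-deficient hearts. That of Igfbp3 stayed between 2.16% and 3.24% in all libraries. Without division by length, the mean shares of Igfbp7 were 57.0% to 61.3%.

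The summed binding protein level per kb was 634 to 765 in the naive libraries and 1495 to 2166 in the MI libraries. Set against Igf1 per kb, it was 75.9 and 99.5 times the ligand in naive control hearts, 78.9, 77.5 and 39.8 times in M34, M150 and M149, 66.1, 76.4 and 65.1 times in MI control hearts and 86.0, 80.1 and 62.3 times in MI Vegfc-deficient hearts. M149 was the low library, and the other groups overlapped. The summed binding protein level and the ligand transcript were therefore both higher after MI with no separation of their ratio. Igfbp7 gave 75.6% to 82.9% of that sum by group mean. The ratio thus mostly describes Igfbp7 and does not speak for the other binding protein genes.

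Over the 11 libraries, the likeness of patterns was measured as the root mean square difference of log2 CPM, each gene centred on its own mean. The 11 points share the MI contrast, so a small value in part describes a like response to it. Igfbp4 and Igfbp7 were 0.13 apart and Igfbp3 and Igfbp7 0.14, and Igfbp7 was the nearest of all tested genes to each of Igfbp3 and Igfbp4. Outside the family, Igfbp7 was nearest to Arhgef40 (0.13), Atp8b1 (0.14) and Snx18 (0.16), Igfbp3 to Tctn1, Golim4 and Arhgef40 (0.14 each) and Igfbp4 to Armcx6 (0.16), Fat4 and Mmp11 (0.17 each). Igf1 was nearest to Cemip2 (0.16), Atl3 and Chd3 (0.18 each), and Igf1r to Dhx33, Ip6k1 (0.11 each) and Prkd3 (0.12). Igfbp5 had no near partner within the family (0.49 to Igfbp7 and Igf1r) and was nearest to Lamc1 (0.25), which encodes a laminin chain, Mast4 and Ttc28 (0.26 each). Igfbp6 was nearest to Tmem108 (0.22), Sema3c (0.24) and Hist3h2a (0.26), and Igfbp2 to Scel (0.34), Col9a2 (0.49) and Pramef12 (0.52). Igfbp2 and Igfbp5, neighbours on chromosome 1, were 2.00 apart.

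Around the 8 genes, a list of 55 other genes of the pathway was examined, of which 50 passed the filter. After MI 10 were higher and 12 lower in control hearts, and 15 were higher and 12 lower in Vegfc-deficient hearts, by edgeR's test with adjustment over all genes, with median log2 fold changes of 0.04 and 0.18. In both genotypes 8 were higher and 11 lower (16% and 22% of the 50 genes), where all genes tested gave 21.2% and 21.2%. The calls were not all stable to leaving out single libraries, as 12 of the 22 in control hearts and 10 of the 27 in Vegfc-deficient hearts were lost in at least 1 of the 11 fits. None of the 50 passed between the genotypes or for the interaction, where 0 of all 14779 genes did.

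Among the ligands, receptors and carriers of the list, Igf2, the second IGF gene, was at 31.8 ± 3.90 CPM (SD, n = 2) in naive control and 40.1 ± 8.97 CPM (SD, n = 3) in MI control hearts, and its log2 fold change was 0.33 (standard error 0.34) in control and -0.24 (standard error 0.30) in Vegfc-deficient hearts, with neither past the threshold. Igf2r, the clearance receptor of IGF-2, had -0.14 (standard error 0.25) and 0.48 (standard error 0.22), again with neither past it. Without M149 the Vegfc-deficient values were -0.42 for Igf2 and 0.78 for Igf2r, and the latter then passed (adjusted p = 0.00601 by edgeR). Insr, the insulin receptor gene, fell in control hearts (log2 fold change -0.78, Benjamini-Hochberg adjusted p = 0.0144 by edgeR) and had -0.50 in Vegfc-deficient hearts (adjusted p = 0.053 by edgeR). The call in control hearts was lost without M45 (adjusted p = 0.106 by edgeR), and one was gained in Vegfc-deficient hearts without M149 (-0.59, adjusted p = 0.0449 by edgeR) and without M35 (-0.76, adjusted p = 0.00337 by edgeR). Igfals, which encodes the third part of the circulating complex of IGF and IGFBP3, fell from 6.30 ± 1.09 to 0.330 ± 0.479 CPM in control hearts and from 4.93 ± 1.93 to 0.514 ± 0.674 CPM in Vegfc-deficient hearts. Its call was lost without M45 in the former and without M150, M913 or M900 in the latter, with adjusted p up to 0.0502 and 0.0703 by edgeR. Igfbp1 had 1 count in all 11 libraries together, in M38, and Igfbpl1 was at 0.0906 to 1.09 CPM, and neither passed the filter, nor did Ins1, Ins2 and Insrr. With no filter, Igfbpl1 had a log2 fold change of -2.12 in Vegfc-deficient hearts (adjusted p = 0.0381 by edgeR) and -0.86 in control hearts (adjusted p = 0.465 by edgeR).

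Among the 6 genes of binding protein proteases and their inhibitors, 1 rose in control hearts and 4 rose in Vegfc-deficient hearts, where 26.3% and 30% of all genes did. Pappa, whose product PAPP-A cuts IGFBP4, rose from 1.26 ± 0.777 to 10.1 ± 5.41 CPM in control hearts (log2 fold change 3.0, adjusted p = 0.00169 by edgeR) and from 1.136 ± 0.512 to 9.89 ± 1.02 CPM in Vegfc-deficient hearts (3.08, adjusted p = 4.28e-04 by edgeR). Pappa2, a related protease, had 3 counts in naive control and 0 in naive Vegfc-deficient libraries and 54 and 148 counts after MI, so that it passed the filter only through its MI libraries and had to differ. Its call in Vegfc-deficient hearts is 1 of the 4 counted. Stc1 and Stc2, the stanniocalcin genes whose products inhibit PAPP-A, rose in Vegfc-deficient hearts (log2 fold change 1.32 and 0.73, adjusted p = 0.0201 and 0.0366 by edgeR) and had 0.36 and 0.01 in control hearts (adjusted p = 0.534 and 0.971 by edgeR). Stc1 lost its call without M150, M149 or M35 (adjusted p up to 0.0723 by edgeR), and Stc2 lost it without any one of M45, M44, M34, M150, M149 and M913 (up to 0.142 by edgeR). None of these passed the interaction, the test of whether the genotypes differed in them, but 0 of all 14779 genes passed it. It therefore does not decide whether the genotypes differed in these genes. Lrp1, a cell surface receptor that binds IGFBP3, rose by 1.08 and 1.31 on the log2 scale in control and Vegfc-deficient hearts, with the control call lost without M45 or M44 (adjusted p up to 0.0542 by edgeR).

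Downstream of the receptor, genes moved in both directions. Shc1 and Grb10, adaptors of the receptor, rose in both genotypes (1.24 and 0.87 on the log2 scale in control hearts, 1.17 and 1.32 in Vegfc-deficient hearts), whereas Grb14, an adaptor that restrains the insulin receptor, fell by 2.39 in each. Of 17 genes of PI3K, AKT and mTOR signalling, 3 rose and 4 fell in control hearts and 3 rose and 5 fell in Vegfc-deficient hearts, where all genes gave 26.3% higher and 24.1% lower and 30% higher and 27.7% lower. The kinase gene Akt2 fell by 0.87 in control and by 0.96 in Vegfc-deficient hearts. Tsc2, which encodes a brake on mTOR, fell by 1.09 in control and by 0.40 in Vegfc-deficient hearts. The latter call was lost without M006, M913 or M900 (adjusted p up to 0.0894 by edgeR), and that of Grb10 in control hearts without M45 or M44 (up to 0.0728).

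Of the 5 genes of FOXO factors and their atrophy targets, 3 fell in each genotype and none rose, where 24.1% and 27.7% of all genes fell. Trim63 and Fbxo32, ubiquitin ligase genes of muscle, had log2 fold changes of -3.06 and -1.19 in control hearts and -2.44 and -0.87 in Vegfc-deficient hearts, and Foxo4 had -0.56 and -0.51. Trim63 and Fbxo32 are expressed in muscle cells, and 8 of 8 cardiomyocyte markers fell in control hearts and 7 of 8 in Vegfc-deficient hearts in the same libraries. The part of muscle cells in these values was not tested. Fbxo32 lost its call without M45 in control hearts (adjusted p = 0.0823 by edgeR) and without M150, M913 or M900 in Vegfc-deficient hearts (up to 0.0686). In the growth hormone axis, Socs3, an inhibitor of cytokine signalling, rose by 1.91 and 1.37, while Ghr, the growth hormone receptor gene, fell by 0.71 and 0.77 and Stat5b, which carries its signal, fell by 0.35 and 0.44. In control hearts the call of Ghr was lost without M45 or M44 (adjusted p up to 0.0717 by edgeR), and that of Stat5b without M45, M44, M006 or M40 (up to 0.137). Each gene described here as higher or lower passed edgeR's test at an adjusted p of 0.05 with all 11 libraries.

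**Figure D5:**
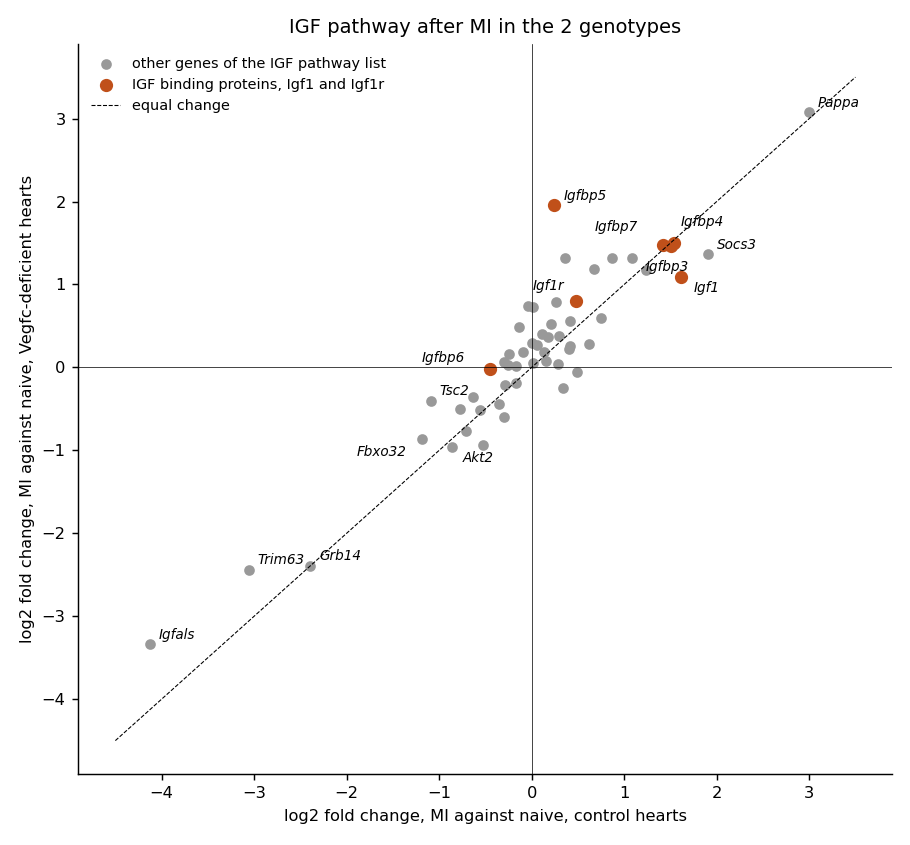
Log2 fold change after MI in control hearts (x axis) against that in Vegfc-deficient hearts (y axis) for the IGF axis genes and the pathway list, with the 2 comparisons made on separate mice. Igfbp2 and Pappa2 are left out because their naive counts are at or near 0, and 1 gene of the list is not shown. Igfbp5 lies above the diagonal (0.24 and 1.96), Igfbp3, Igfbp4 and Igfbp7 lie close to it near 1.5, and Igfals and Trim63 lie at the lower left.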

How the data were processed

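Stranded mRNA libraries of 11 left ventricles were used. The values the authors deposited are read counts by Ensembl gene, not normalized. Per the labels, the submitters' processing notes name cutadapt 1.13, STAR, HTSeq 0.6.1p1, DESeq2 1.14.1 and the mm10 build. Of 25006 genes, 24991 matched GENCODE M21 (GRCm38), which gave symbols, positions and exon lengths (the union of a gene's exons). Total counts were 10824989 to 26782728 per library, and the chi-square per degree of freedom between libraries of a group was 8.24 to 163, where counting noise gives about 1. Nothing says how mice were assigned, and p-values measure the spread between these mice.

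Groups came from the labels. Genes were filtered by edgeR's filterByExpr, scaled by TMM and tested by edgeR 4.0.16's quasi-likelihood test (R 4.3.3) in 1 fit of 11 libraries with Benjamini-Hochberg adjustment over 14779 genes, at a threshold of 0.05. Standard errors are the log2 fold change over the root of F. CPM used TMM-scaled library sizes, and likeness took log2 CPM at a prior count of 2. The 8 genes, the pathway list and the markers were chosen with earlier results of these data known. The rule named all 8 genes, Igf2, Igf2r, Insr, Igfbp1, Igfbpl1 and Igfals, up to 3 genes per subgroup of the list with the largest fold changes called alike in both genotypes, and the 3 nearest genes to each of the 8. Pappa2, Stc1, Stc2, Ins1, Ins2 and Insrr fall outside it and were named after their values were seen. One gene that the rule names is not reported here.

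Alternatives were the size factors and Wald test of DESeq2 1.42.0, limma 3.58.1 voom, scaling without ribosomal and haemoglobin genes, other filters on low counts, a threshold of 0.01, fits of the compared groups alone, removal of a length trend and leaving out each library. In a test on simulated counts, 200 genes were changed 2-fold, and edgeR found 47 with 1 false call for genotype after MI (14664 genes), and DESeq2 114 with 40 false calls. For genotype in naive hearts (14654 genes) edgeR found 2 of 200.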

Additional observations from a re-analysis of the deposited data

Results flagged for a closer look

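Among the 8 genes and the 50 tested genes of the list, 2 had genotype differences in opposite directions in naive and MI hearts. In these, every Vegfc-deficient library lay below every control library in naive hearts and above every control library after MI. They are Igfbp5, with an interaction log2 fold change of 1.71, and Tsc2, which encodes a subunit of an inhibitor of mTOR signalling, with 0.69. Tsc2 was at 74.7 and 75.8 CPM in naive control and 59.7 to 63.9 CPM in naive Vegfc-deficient hearts, and at 33.9 to 38 CPM in MI control and 41.7 to 55.7 CPM in MI Vegfc-deficient hearts. Neither interaction passed the threshold in edgeR, and 194 of 14779 genes (1.31%) had this order of libraries. Naive and MI hearts also differed in sex by their Xist and Y-linked levels, from which the change of order cannot be told apart. With M149 taken as a control library, the naive order would be lost for Igfbp5 but not for Tsc2. No group had 4 or more libraries, so single libraries were not examined by an outlier test.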

How the results depend on the processing

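For MI against naive in control hearts, 7450 genes were called, 4798 at a threshold of 0.01 and 4574 to 7636 when each library was left out, with the lowest counts without naive control M45 (4574) and M44 (4880). The pathway list gave 22 calls there, 13 at the threshold of 0.01 and 10 to 23 without each library (10 without M45). In Vegfc-deficient hearts the list gave 27 calls and 17 at the threshold of 0.01. Between the genotypes after MI, 0 genes were called by edgeR, 62 by DESeq2 (1 of the 8 genes, Igfbp5) and 0 to 1 without each library. In naive hearts 0 were called by edgeR, 14 by DESeq2, 2 in a fit of the compared groups only, 6 by limma-voom and 0 to 17 without each library (17 without M149). The interaction gave 0 by edgeR, 58 by DESeq2 (1 of the 8, Igfbp5) and 0 to 1 without each library. Of the 8 genes, 5 to 6 passed after MI in control hearts over all these settings, as Igfbp6 joined without M35 and in the fit of the compared groups only and Igf1r joined with limma-voom and without M38, and 7 to 8 passed in Vegfc-deficient hearts, as Igfbp6 joined as lower without M35. No fold change of a called gene among the 8 changed direction. With the length trend removed, Igfbp7 had a log2 fold change of 2.31 after MI in Vegfc-deficient hearts and Igfbp5 had 1.04 between the genotypes after MI. Why counts moved between tests was not tested. No paired analysis was possible because the labels give mouse names and no replicate numbers shared between groups. A group of 2 naive control libraries limits every comparison that uses it, and Igfbp2 in naive hearts is at the floor of the depth.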
